A study of Mus musculus with 4 samples.

Results

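The 139 genes described here are the expressed members of the annotation class "processed transcript", which holds spliced RNAs without a recognised open reading frame and among them many host genes of small nucleolar RNAs (snoRNAs) and microRNAs (miRNAs). They were selected on their gene type in the count files and on a mean level of at least 1 CPM, the count scaled to the library total, so that their type and level are descriptions and not findings. The class had 600 genes among the 37646 listed, and the 139 were 23.2% of it. Another 376 had a count but a mean CPM below 1, and 85 had no count in any library. The limit cut a continuous range. Just inside it lay Gm11769, BC037032, Gm20492, 2500002B13Rik and Gm20429, at a mean of 1.06, 1.05, 1.04, 1.02 and 1.02 CPM. Just outside lay Gm17494, Gm16556, Gm2788, 1700120C14Rik and 6430562O15Rik, at 0.98, 0.95, 0.90, 0.89 and 0.89 CPM.

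The 4 libraries formed 1 group. They came from B220+YFP+ cells of the spleens of C57BL/6 control mice of the genotype YFPstopF/+ Cg1Cre/+, in which Cre driven from the immunoglobulin heavy constant gamma 1 locus removes a stop cassette before a YFP reporter. The reporter marks B cells that have transcribed that locus, and these are labelled germinal centre (GC) B cells, the cells that mutate their antibody genes in the spleen after immunisation. The mice had received 2 intraperitoneal injections of sheep red blood cells 20 days apart, and cells were taken 10 days after the second. The gate selects neither on a GC surface marker nor against cells that left the GC with the reporter on. The labels give neither the sex nor the number of animals behind a library, so the p-values measure the spread between these samples. Library 3 stood apart in sex-linked RNA. Xist, the RNA of the inactive X chromosome in females, measured 630, 668, 0.40 and 828 normalised CPM in libraries 1 to 4. The Y-linked gene Ddx3y measured 0.21, 0, 87.0 and 0, and Eif2s3y had 47.4 in library 3 and 0 in each other library. Library 3 thus held male RNA and the others female RNA, so library 3 shared no animal with them, whereas libraries 1, 2 and 4 cannot be told apart in this way. Results in which library 3 is extreme are given below also without it, a choice made after seeing the data. The lymphoma samples that the design text names are not analysed here.

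Library totals ran from 13777954 to 14629025 counts. All 12 B lineage markers, all 12 GC markers, all 12 macrophage and monocyte markers, all 10 plasma cell markers and all 14 T cell markers had a mean of at least 1 CPM. The GC markers summed to 2552, 1797, 2474 and 2029 normalised CPM in libraries 1 to 4, and 4 of the 12 varied at an unadjusted p under 0.05 (edgeR quasi-likelihood). All 14 T cell markers varied between the libraries at an unadjusted p under 0.05 and 0 at an adjusted p under 0.05 (edgeR quasi-likelihood). The summed level of the T cell markers was 501, 240, 175 and 418 normalised CPM in libraries 1 to 4, against 9415 to 11518 for the 12 B lineage markers. The summed immediate early and heat shock genes reached 14075 normalised CPM in library 2, against 5510 to 8269 in the others. In such bulk RNA, fewer cells of a type and less RNA per cell cannot be told apart. Normalised CPM are CPM scaled by edgeR's trimmed mean of M-values (TMM). TPM are counts per length of merged exons, scaled to the same total in every library, and serve to compare levels of single genes. Sums over gene lists, shares and the ranking by mean CPM used CPM or counts, which are not scaled by length.

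A snoRNA host gene carries its product in its introns: splicing frees the snoRNA, which guides methylation (box C/D snoRNAs, marked by the motifs TGATGA and CTGA near their ends) or pseudouridylation (box H/ACA snoRNAs) of ribosomal and spliceosomal RNA. The spliced exons that remain are often degraded by nonsense-mediated decay, and several hosts start transcription within a run of C and T letters, as ribosomal protein genes do. A miRNA host carries a hairpin that is cut into a mature miRNA, whose seed, bases 2 to 8, pairs with its targets. Neither snoRNAs nor mature miRNAs have a poly(A) tail, so poly(A)-selected libraries measure the host RNA and not its product.

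The GENCODE M21 annotation (GRCm38, the assembly also called mm10) placed an annotated snoRNA inside 15 of the 139 genes and an annotated miRNA inside 6. Snhg4 held both kinds, so 20 genes were small RNA hosts and 119 were not. Leaving out Snhg14, with 208 snoRNA entries, the other 14 snoRNA hosts held 39. Both box C/D motifs were found in 26 of these 39 (66.7%), searching TGATGA in the first 25 bases and CTGA in the last 20, against 121 of the 1299 annotated snoRNAs outside Snhg14 (9.32%). In Snhg14, 189 of the 208 had both, and with these the annotated total was 310 of 1507 (20.6%). Representative snoRNAs are shown from the GENCODE M21 transcripts because they are what these genes are known for, 5′ to 3′ on their own strand, with both motifs in capitals. Snord49a, Snord49b and Snord65 lie in 2410006H16Rik, at chr11:62603450-62603521, chr11:62603079-62603150 and chr11:62604515-62604586. Snord50a and Snord50b lie in Snhg5, at chr9:88521529-88521600 and chr9:88521797-88521868. Snord47 lies in Gas5, at chr1:161038082-161038158, and Snord52 in 1110038B12Rik, at chr17:34950952-34951017. The last, Snora24 of Snhg8 at chr3:123507937-123508066, held no motif pair.
Snord49a: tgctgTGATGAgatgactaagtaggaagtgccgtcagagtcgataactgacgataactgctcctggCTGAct
Snord49b: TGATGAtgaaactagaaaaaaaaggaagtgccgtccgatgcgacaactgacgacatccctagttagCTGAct
Snord65: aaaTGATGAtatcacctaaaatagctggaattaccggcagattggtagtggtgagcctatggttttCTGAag
Snord50a: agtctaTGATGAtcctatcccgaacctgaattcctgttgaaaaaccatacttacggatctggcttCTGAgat
Snord50b: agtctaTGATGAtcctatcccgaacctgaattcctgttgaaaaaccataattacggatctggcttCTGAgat
Snord47: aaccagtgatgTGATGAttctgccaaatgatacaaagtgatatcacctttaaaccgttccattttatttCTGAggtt
Snord52: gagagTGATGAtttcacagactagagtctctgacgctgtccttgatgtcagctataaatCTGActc
Snora24: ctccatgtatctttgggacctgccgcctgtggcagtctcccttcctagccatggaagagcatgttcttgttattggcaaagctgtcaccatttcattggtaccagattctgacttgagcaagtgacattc
The pair in Snhg5 had the same 72 bases except for 1 substitution, C50A, counted from 1 at the 5′ end of Snord50a. Snord49a and Snord49b shared an unbroken run of 13 bases, aggaagtgccgtc, at position 23 of each.

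The miRNAs of Snhg4 were not examined for mature sequences. Among the other miRNA hosts, mature sequences in RefSeq fell to 4. Representative sequences are given with their seeds in capitals because the seed sets which RNAs a miRNA can pair with.
miR-15a-5p (Dleu2): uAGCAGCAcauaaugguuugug
miR-16-5p (Dleu2): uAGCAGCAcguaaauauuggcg
miR-29b-3p (A330023F24Rik): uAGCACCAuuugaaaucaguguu
miR-29c-3p (A330023F24Rik): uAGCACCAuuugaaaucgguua
miR-22-3p (Mir22hg): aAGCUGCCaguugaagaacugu
The 2 products of Dleu2 shown shared the seed AGCAGCA and the 2 of A330023F24Rik the seed AGCACCA, so each of these host genes carries a pair with 1 seed. The mature sequences from the other arms of these hairpins, not shown, had other seeds. Gm10505 carries miR-7216, whose arms share no seed with these.

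The start sites of the snoRNA hosts were examined for C and T runs in the RefSeq promoter set (GRCm38.p6), from 20 bases before the start to 30 bases from it. Promoters were listed for 84 of the 139 genes, 13 of them snoRNA hosts. A run of at least 7 C or T letters lay in this window in 8 of the 13 hosts (61.5%), in 16 of the 71 other genes (22.5%) and in 28.6% of all 32851 RefSeq promoters. The run covered the annotated start itself only in 2410006H16Rik and Snhg8. It began after the start in Snhg1, Snhg5, AI506816, 1110038B12Rik and Dancr, and ended before it in Snhg17. The windows below are from hosts with a run of at least 7 letters and, as the last pair, from hosts without one. Capitals mark the longest run, and the annotated start is base 21 of each.
Snhg1, chr19:8723467-8723516, plus strand: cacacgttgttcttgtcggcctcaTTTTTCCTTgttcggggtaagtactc
Snhg5, chr9:88522868-88522917, minus strand: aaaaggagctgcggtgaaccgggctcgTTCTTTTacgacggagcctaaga
2410006H16Rik, chr11:62602857-62602906, plus strand: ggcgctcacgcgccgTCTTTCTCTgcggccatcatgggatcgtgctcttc
1110038B12Rik, chr17:34952442-34952491, minus strand: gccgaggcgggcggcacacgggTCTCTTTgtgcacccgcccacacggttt
Snhg8, chr3:123508307-123508356, minus strand: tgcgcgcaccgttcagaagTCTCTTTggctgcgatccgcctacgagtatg
Gas5, chr1:161034581-161034630, plus strand: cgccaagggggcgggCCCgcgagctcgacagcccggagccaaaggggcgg
Zfas1, chr2:167062914-167062963, plus strand: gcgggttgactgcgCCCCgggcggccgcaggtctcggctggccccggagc
The RefSeq start lay 179 bases from the GENCODE start in Gas5, 1269 bases in A430035B10Rik and 474418 bases in Snhg14, and none of these windows held such a run. Of the 10 hosts whose starts lay within 100 bases of each other in both annotations, 8 had one. This limit was chosen after seeing the data and was not applied to the other genes or to all promoters. Within the 300 bases from 250 before to 50 after the start, the snoRNA hosts held a median of 23 CpG, the other genes 15 and all promoters 7. The letters CCGGAAG, searched on both strands there, were found in 0 of the 13 snoRNA hosts, in 16 of the 71 other genes (22.5%) and in 8.86% of all promoters. TATAAA was found in 4 of the 13 hosts and in 13.6% of all promoters. These matches describe letters and are not evidence of a bound factor.

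Per length, the class was led by a gene that RefSeq types as protein coding. Ifi30, the lysosomal thiol reductase that unfolds antigens for presentation on MHC class II, stood at 689 ± 81.3 TPM (SD, n = 4; also below). Next came the snoRNA hosts 2410006H16Rik at 322 ± 74.4, Gas5 at 119 ± 25, Snhg5 at 107 ± 34.5 and Snhg1 at 67.0 ± 19.8 TPM. Gas5 and Snhg5 lay within their spread of each other, as did Zfas1 at 48.9 ± 11.4, Snhg8 at 45.4 ± 4.07 and 1110038B12Rik at 41.7 ± 9.95 TPM. The median of the 139 genes was 2.60 TPM, against 12.5 over all 12468 annotated genes that had a mean of at least 1 CPM. Counts were concentrated: the top 5 genes held 42.4% of the summed mean CPM and the top 20 held 77.9%, and 55 genes had a mean below 2 CPM.

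**Figure D1:**
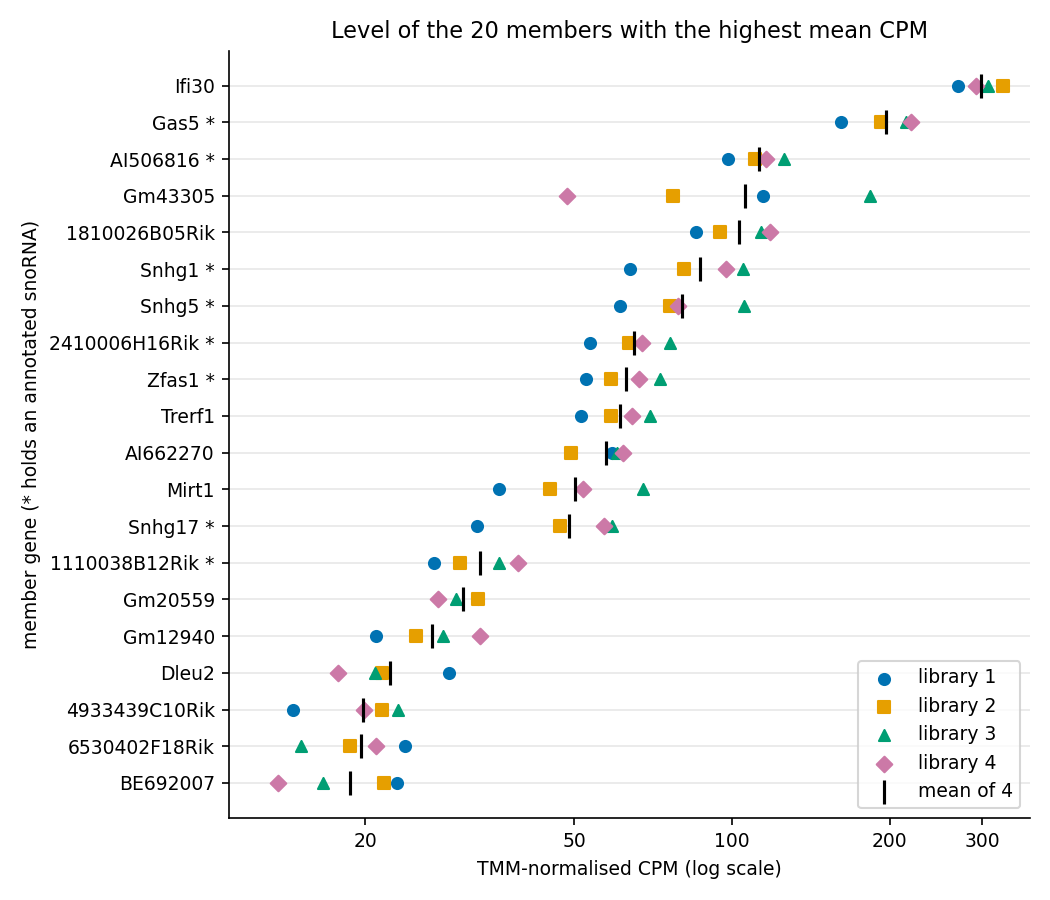
TMM-normalised CPM (x axis, log scale) of the 20 genes with the highest mean CPM (y axis), with a symbol for each library and a bar at the mean of the 4; asterisks mark snoRNA hosts. Most rows span less than a factor of 2, and Gm43305 spans from 48.6 to 183 normalised CPM.

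The 15 snoRNA hosts made up 37.6% of the class's summed normalised CPM. Their share of all counts was 0.0586% in library 1 (95% exact binomial interval 0.0573% to 0.0599%), 0.0662% in library 2 (0.0648% to 0.0675%), 0.0856% in library 3 (0.0841% to 0.0871%) and 0.0809% in library 4 (0.0794% to 0.0824%). Library 1 was lowest and library 3 highest, and no intervals overlapped; the intervals cover counting error only. The mean was 0.0728% ± 0.0126. For the whole class the share was 0.173%, 0.181%, 0.219% and 0.200%, with a mean of 0.193% ± 0.0207. The 124 genes that held no snoRNA had 0.115%, 0.114%, 0.134% and 0.119%, so that their range was narrower. Mitochondrial genes held 20.6%, 23.3%, 18.1% and 19.8% of the counts in libraries 1 to 4, which bears on shares of the total. With these genes left out of the total, the mean share was 0.0914% for the snoRNA hosts and 0.243% for the class. Their part in the differences between libraries was not tested.

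Gas5 (growth arrest specific 5), the host of 10 annotated snoRNAs at chr1:161034422-161038539, measured 162, 192, 215 and 219 normalised CPM in libraries 1 to 4. Libraries 3 and 4 were close together and library 1 was lowest. The highest-to-lowest ratio was 1.36, and the variation test gave an adjusted p of 0.990 (edgeR quasi-likelihood, Benjamini-Hochberg). Snhg1, the host of 8 snoRNAs at chr19:8723475-8726443, measured 63.9, 81.0, 105 and 97.6 normalised CPM. Snhg5 at chr9:88521050-88522929 measured 61.3, 76.2, 106 and 79.0. Both were lowest in library 1 and highest in library 3, by 1.65-fold and 1.72-fold.

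2410006H16Rik, which releases Snord49a, Snord49b and Snord65, measured 53.6, 63.6, 76.2 and 67.2 normalised CPM. Zfas1, host of Snord12, starts 81 bases from the start of the helicase gene Znfx1 on the opposite strand. It measured 52.7, 58.9, 72.8 and 66.5. Snhg17, host of 3 snoRNA entries without the C/D motif pair, measured 32.6, 47.0, 59.0 and 57.0. Its ratio of 1.81 was the largest of the 9 snoRNA hosts with a mean of at least 10 normalised CPM. 1110038B12Rik, host of Snord52 and another C/D snoRNA in the MHC class III region, measured 27.1, 30.3, 36.0 and 39.1. AI506816, at chr5:23698296-23712667, measured 98.2, 111, 126 and 116; its snoRNA entry carries the name Mir3096 and had no motif pair. Snhg8 departed from the others at 16.9, 20.4, 13.6 and 18.3 normalised CPM, with its lowest value in library 3.

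Library 1 was lowest, and library 3 or 4 highest, in 8 of these 9 hosts (88.9%). The same order held in 5 of the 18 other genes of the class at that level (27.8%) and in 21.5% of all 8342 genes with a mean of at least 10 normalised CPM. The genes share the same 4 libraries, so the 8 are not independent observations, and no test was made. The order was also chosen after seeing the values of these hosts, which by itself raises their share above that of other genes. The 17 snoRNP protein genes on the list, which bind snoRNAs or load them, summed to 1059, 1201, 1500 and 1296 normalised CPM, lowest in library 1 and highest in library 3 as well. The 18 nonsense-mediated decay genes summed to 1651, 1810, 1891 and 1793, with the same lowest and highest library as the snoRNP genes. So did the 124 members without a snoRNA, at 1142, 1211, 1304 and 1159. The order was thus not particular to snoRNA genes. The 13 miRNA processing and effector genes were lowest in library 1 and highest in library 2. The 78 ribosomal protein genes summed to 12959, 12200, 12427 and 12811, a span of 1.06-fold with library 1 highest. Without library 3, all 9 hosts were lowest in library 1 and 8 of them highest in library 4 (88.9%), against 4 of the 18 other genes (22.2%) and 16.8% of all genes. The summed hosts then spanned 1.35-fold, against 1.43-fold with library 3, so the low point in library 1 was there among the 3 libraries with female RNA. Markers of other cell types were low in library 3. The T cell sum there was 175 against 240 to 501 normalised CPM in the others, the macrophage and monocyte sum 199 against 250 to 329, the neutrophil sum 46.5 against 78.7 to 129, the erythroid sum 33.4 against 45.5 to 116 and the plasma cell sum 1633 against 2842 to 3292. In library 1, where 8 of the 9 hosts were lowest, the T cell sum was highest at 501 and the macrophage and monocyte sum at 329. The GC marker sum was also highest there, at 2552. The neutrophil and erythroid sums were highest in library 4 and the plasma cell sum in library 2. The part of cell composition in the host values was not tested. None of the 15 hosts was called by the variation test, which tested 14 of them.

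**Figure D2:**
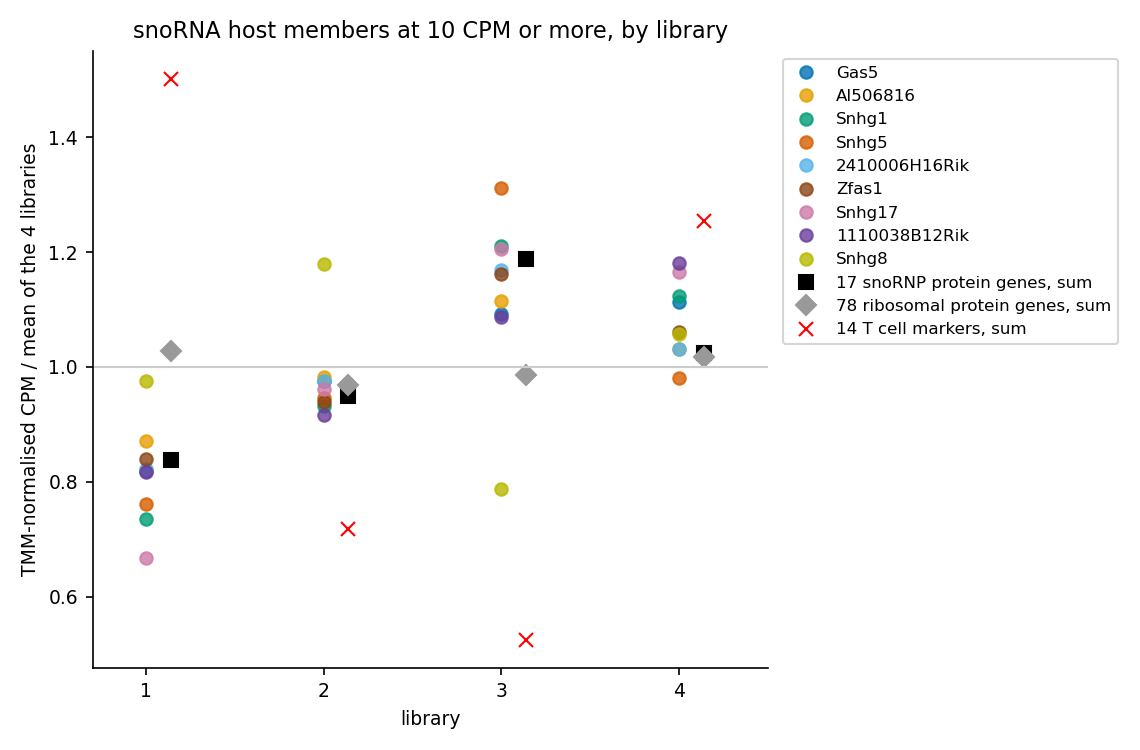
Each circle is the TMM-normalised CPM of a snoRNA host divided by its mean over the 4 libraries (y axis), by library (x axis), for the 9 hosts with a mean of at least 10 CPM; squares, diamonds and crosses are the sums of snoRNP protein genes, ribosomal protein genes and T cell markers on the same scale. All circles of library 1 lie below 1, those of library 3 lie above 1 except Snhg8, and the crosses run from 1.5 in library 1 to 0.53 in library 3.

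The hosts of lower level were less certain. Snhg4, on chromosome 18, measured 5.94, 6.99, 12.0 and 11.4 normalised CPM, and Dancr, known for holding back differentiation of progenitor cells, 2.54, 2.15, 4.59 and 4.56. The values of libraries 3 and 4 lay above those of libraries 1 and 2 for both, with an unadjusted p of 0.151 and 0.221 in the edgeR variation test. Snhg14, a transcript of the imprinted Prader-Willi and Angelman region that runs antisense to Ube3a in neurons, measured 0.71, 2.92, 1.80 and 3.13 normalised CPM. Its merged exons of 26093 bases gave 0.18 ± 0.09 TPM, and 7.73% of them were shared with other genes. A430035B10Rik at 3.42 ± 0.80, AA465934 at 2.42 ± 0.21 and Gm15832 at 1.13 ± 1.05 normalised CPM completed the snoRNA hosts. AA465934 varied by 1.22-fold only.

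Nested small RNAs had rows of their own in few cases: 9 of the 48 in hosts other than Snhg14, and 1 of those in Snhg14, which had no count. The remaining small RNAs are not analysed here. By position, 9 of the 48 lay in introns of every annotated isoform of their host, and the others overlapped an exon of some isoform. The merged exons were a median of 1.47 times the longest transcript in the snoRNA hosts, against 1.16 times in the other members. Snord49a had 34, 30, 42 and 49 counts in libraries 1 to 4, Snord65 had 31, 21, 24 and 21, and Snord49b had 32, 13, 19 and 23. All lie in introns of 2410006H16Rik, whose own normalised level was lowest in library 1, where Snord65 and Snord49b had their highest. The row for Gm23201, in Zfas1, had 35, 19, 21 and 20 counts, and Snord7 in AA465934 had 6, 4, 7 and 1. Mir15a had 0 counts in every library, which allows up to 0.21 to 0.22 CPM per library. With poly(A) selection these counts can come from precursor RNA, which was not tested.

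Of the miRNA hosts, Dleu2 had the most counts behind it. It encodes the precursor of miR-15a and miR-16-1, the pair lost in many chronic B cell leukaemias and known to target the survival gene Bcl2. Dleu2 (chr14:61602839-61682373) measured 28.9, 21.5, 20.8 and 17.7 normalised CPM, so it was highest in library 1, where most snoRNA hosts were lowest. Mir22hg measured 4.38, 7.38, 10.8 and 10.8, a 2.48-fold span with an unadjusted p of 0.102. Per length Mir22hg stood at 10.0 ± 4.43 TPM and Dleu2 at 4.42 ± 0.92. A330023F24Rik, the host of miR-29b-2 and miR-29c, measured 0.49, 1.84, 0.80 and 2.11 normalised CPM and was too low in counts to be tested. Gm10505 at 2.16 ± 0.30 and Gm11613 at 1.5 ± 0.57 normalised CPM were the other miRNA hosts.

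Genes that handle these RNAs were all expressed. The 17 snoRNP protein genes ran from Nhp2, an H/ACA core protein, at 181 ± 37.5 TPM to the assembly factor Znhit3 at 10.6 ± 2.07 TPM. The 18 nonsense-mediated decay genes, whose pathway removes many spliced host RNAs, ran from Magoh, an exon junction protein, at 188 ± 38.4 to Nbas at 9.63 ± 1.08 TPM. The 13 miRNA processing and effector genes ran from Tnrc6a, a partner of Argonaute, at 32.4 ± 4.36 to Prkra at 1.40 ± 0.76 TPM. None of these genes passed the variation test at an adjusted p under 0.05, and none at an unadjusted p under 0.05; 12 of the 13 miRNA pathway genes and all of the others were tested.

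Variation between the libraries was tested against the trend of all genes at the same level, because there is no second group to compare with. Of 11982 genes tested, 1 was called at an adjusted p under 0.05 (0.00835%), and of the 119 members of the class that passed the count filter, 0 were called (edgeR quasi-likelihood). Before adjustment, p was under 0.05 for 2 of the 119 (1.68%) against 595 of all genes (4.97%). With edgeR's robust option 63 genes were called (0.526%), 0 of them in the class. DESeq2 marked 159 genes as outliers above its dispersion trend (1.33%), and limma-voom called 0 genes. Of the class, DESeq2 marked Gm43305 only. Without the count filter, edgeR called 262 of 31026 genes (0.844%), Gm43305 among them.

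Gm43305, a long noncoding RNA gene at chr14:54292443-54297456 on the minus strand, was the only member with a mean of at least 10 normalised CPM and a ratio above 3. It measured 115, 77.3, 183 and 48.6 normalised CPM in libraries 1 to 4, a ratio of 3.77. Library 3 was highest and library 4 lowest, whereas 0 of the 15 snoRNA hosts were lowest in library 4. The unadjusted p was 0.00258 and the adjusted p 0.347 with the count filter (edgeR quasi-likelihood), and the adjusted p without the filter was 0.00225. It shared no exon base with another annotated gene. Trac, the constant region gene of the T cell receptor alpha chain, lies 68237 bases from it and measured 86.3, 41.9, 28 and 69.3 normalised CPM, lowest where Gm43305 was highest. Between them, Dad1, a subunit of the oligosaccharyltransferase, measured 108, 97.4, 104 and 112, and Abhd4, a lipase, measured 9.96, 7.76, 10.4 and 8.86. On the other side Oxa1l, which inserts proteins into the mitochondrial inner membrane, measured 106, 106, 108 and 111. Neither neighbour with more than 100 normalised CPM followed Gm43305. Library 3, the one with male RNA, also had the lowest sums of the other cell types' markers; the part of sex and of these cells was not tested. Without library 3 the ratio of Gm43305 was 2.36, with an unadjusted p of 0.00687 and an adjusted p of 0.492 (edgeR quasi-likelihood).

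The second gene at an unadjusted p under 0.05 was 1700023H06Rik at chr13:80884224-80885524, with 3.04, 6.99, 1.13 and 1.98 normalised CPM. Library 2 was highest, and the adjusted p was 0.821 (edgeR quasi-likelihood). Mirt1 (myocardial infarction associated transcript 1) measured 35.9, 45.0, 67.7 and 51.9 normalised CPM at an unadjusted p of 0.0799 in the same test, with the same lowest and highest library as Snhg1. Snhg17 followed at 0.0846 and Snhg14 at 0.0914.

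**Figure D3:**
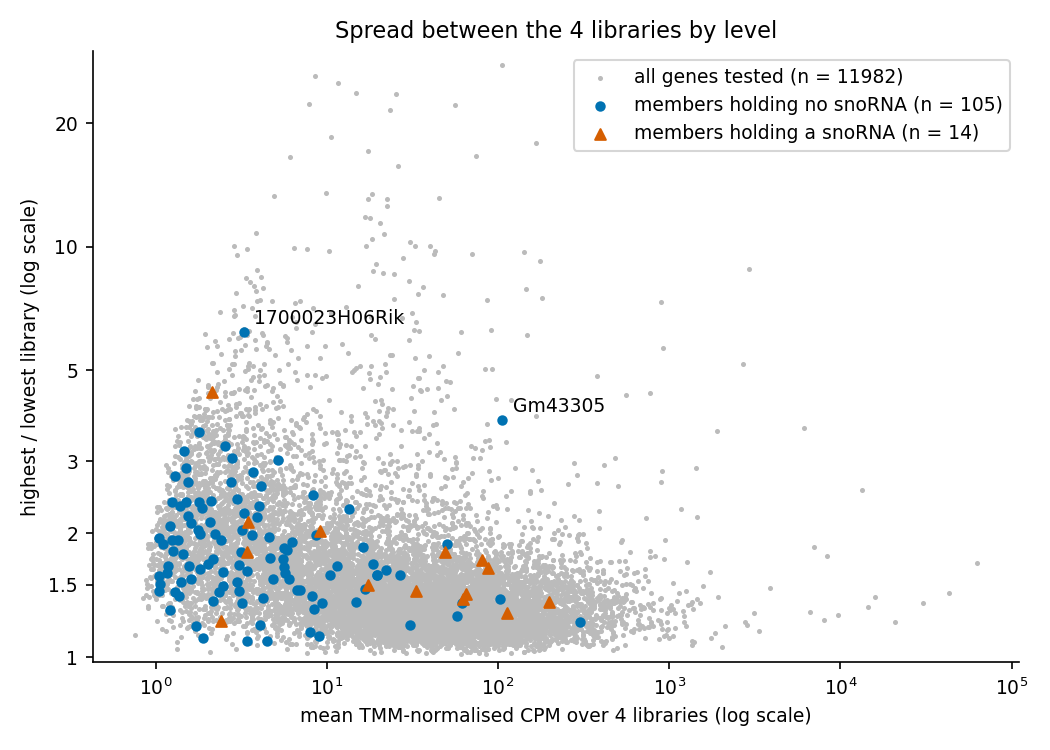
Highest-to-lowest ratio over the 4 libraries (y axis, log scale) against mean TMM-normalised CPM (x axis, log scale) for the 11971 of 11982 tested genes whose ratio is at most 30; blue circles are class members holding no snoRNA and orange triangles those holding one. Most members lie within the grey cloud, and Gm43305 stands above it near 100 CPM with a ratio of 3.77.

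The spread of the tested members was set beside that of all tested genes in the same range of level, as a description. The 27 tested members with a mean of at least 10 normalised CPM had a median ratio of 1.58, against 1.33 for all 8338 tested genes with such a mean. That range has no upper limit, and levels were not matched within it. The median dispersion of these members was 1.40 times the trend, against 0.858 for those genes. Below 10 CPM the 92 tested members had a median ratio of 1.81 against 1.84, and a dispersion of 0.897 times the trend against 0.990. Over all 139 genes the median ratio was 1.81. It was under 1.5 for 36 genes, at least 2 for 54 and at least 4 for 11. Library 2 was the highest for 45 genes and library 1 the lowest for 50. Of the 8 members on the X chromosome, 4 were lowest in library 3 and 2 highest there, against 42 and 37 of all 139 genes.

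The 10 widest ratios belonged to genes with a mean of at most 3.28 normalised CPM. Gm20429 had 9, 27, 3 and 18 counts in libraries 1 to 4, a ratio of 10.4 after normalisation. Gm15832, with Snord89 in its intron, spanned 9.40-fold from 0.28 to 2.66 normalised CPM, and 5830444B04Rik 6.91-fold from 0.27 to 1.84. After 1700023H06Rik at 6.18-fold came 1700028E10Rik at 5.27, Gm20492 at 5.19, 5830487J09Rik at 4.91, Gm12992 at 4.61, Snhg14 at 4.43 and Gm10125 at 4.43. Of these 10 genes the count filter kept 1700023H06Rik and Snhg14 for the test. The steadiest were D030028A08Rik at 1.09, 8430429K09Rik at 1.09, 4931413K12Rik at 1.11, 5031434O11Rik at 1.13 and A930005H10Rik at 1.15. D030028A08Rik measured 4.45, 4.61, 4.53 and 4.22 normalised CPM.

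Several abundant members were neither snoRNA nor miRNA hosts. 1810026B05Rik, which RefSeq names Chaserr and which is known to restrain its neighbour Chd2, a chromatin remodeller gene, measured 85.6, 95, 114 and 118 normalised CPM. Library 1 was lowest and library 4 highest, and 30.5% of its exon bases were shared with other genes, Chd2 among them on the same strand. Trerf1, a transcriptional regulator gene, measured 51.7, 58.8, 69.9 and 64.5. AI662270 on chromosome 11 was steadier at 59.1, 49.2, 60.4 and 61.9 normalised CPM.

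Ifi30 (chr8:70762774-70766663) measured 270, 328, 308 and 292 normalised CPM, a ratio of 1.22. Gm20559 measured 32.9, 32.8, 29.7 and 27.5, a ratio of 1.19, the smallest of the top 20. Gm12940 measured 20.9, 25, 28.1 and 33.1, but 71.8% of its exon bases were shared, with Zmym1 on the opposite strand and the splicing factor gene Sfpq on the same strand. Dleu2 apart, the rest of the top 20 were 4933439C10Rik, 6530402F18Rik and BE692007, with ratios of 1.59, 1.58 and 1.69. BE692007 was highest in library 1 and lowest in library 4, and 4933439C10Rik was lowest in library 1.

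Overlap with other genes was frequent in the class; the shares here are given as descriptions, with no test. Some exon base was shared by 87 of the 139 (62.6%), against 37.0% of the 12468 annotated genes with a mean of at least 1 CPM and 54.9% of the 446 lincRNA and antisense genes among these. Sharing on the same strand involved 23.0% of the class and 8.40% of all, with 7.40% of lincRNA and antisense genes. Sharing on the opposite strand involved 49.6% of the class, 31.5% of all and 50.9% of lincRNA and antisense genes, so the class was close to that group there. For 7 of the 87 the partners were small RNA genes only. At least 50% of the exon bases were shared in 5 genes, which were Gm12940, 5430405H02Rik, Gm50230, Gm44597 and Gm21986. The strand setting of the counting is not given in the sources used here, so reads of such overlapping genes may not be told apart.

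**Figure D4:**
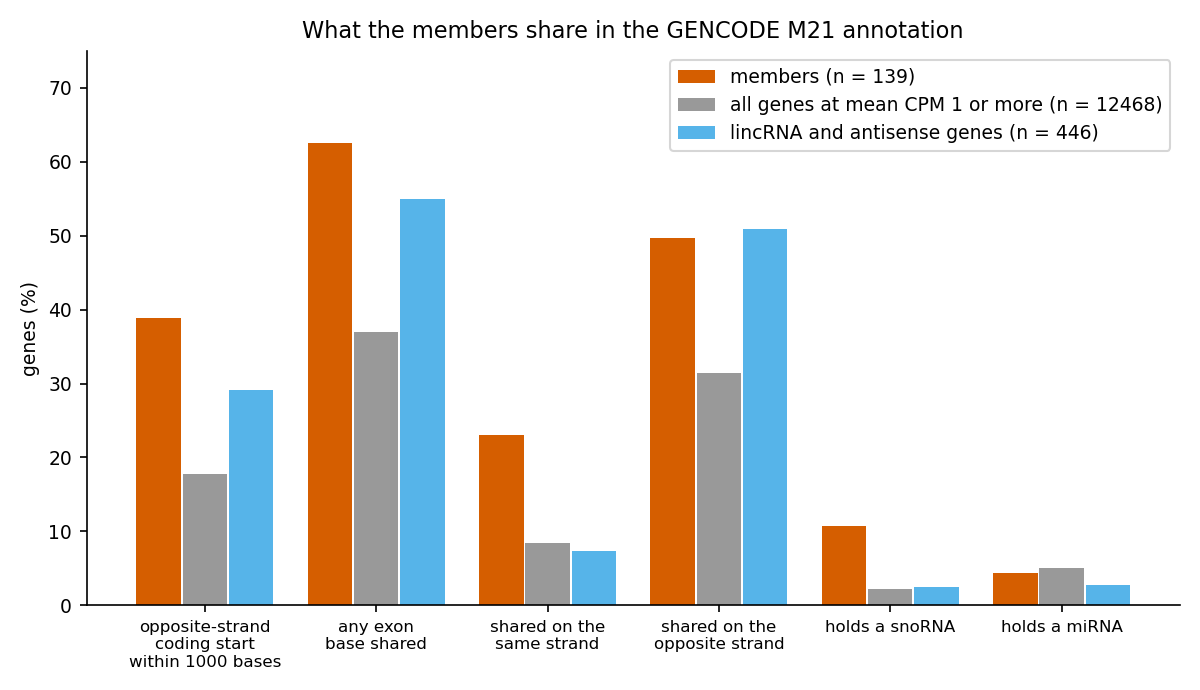
Percent of genes (y axis) with each annotation property (x axis) among the 139 class members, all 12468 annotated genes at a mean of at least 1 CPM, and the 446 lincRNA and antisense genes among these. The class stands above both others for opposite-strand coding starts within 1000 bases, same-strand sharing and nested snoRNAs, at 38.8%, 23.0% and 10.8%. Pairs that run apart and pairs that overlap at their starts were not separated.

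A coding gene started on the opposite strand within 1000 bases of the start of 54 members (38.8%), against 17.8% of all expressed genes and 29.1% of lincRNA and antisense genes. The starts lay a median of 194 bases apart, and 4 of the 54 were snoRNA hosts. All 54 coding neighbours had a mean of at least 1 CPM. They had a median of 25 TPM and the members 2.13 TPM, and the median pair had the member at 0.109 of its neighbour. The member was above its neighbour in 5 pairs. Gas5 at 119 TPM stood 60.5 times above the zinc finger gene Zbtb37 at 1.97 TPM, and Gm16283 at 25.4 TPM stood 7.63 times above Dtwd2 at 3.33. Foxd2os was 4.28 times above the forkhead gene Foxd2, 2810408I11Rik 3.78 times above Ccnyl1, and Zfas1 2.92 times above Znfx1. Snhg1 at 67.0 TPM was at 0.494 of Slc3a2, the heavy chain of amino acid transporters. Slc3a2 measured 150, 206, 249 and 234 normalised CPM in libraries 1 to 4, lowest and highest in the same libraries as Snhg1. Zbtb37 measured 19.5, 20.3, 12.2 and 14.7, higher in libraries 1 and 2, where Gas5 was lower. The largest gap the other way was that of Gm16023, at 0.0059 of Cdk11b, a cyclin-dependent kinase gene.

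**Figure D5:**
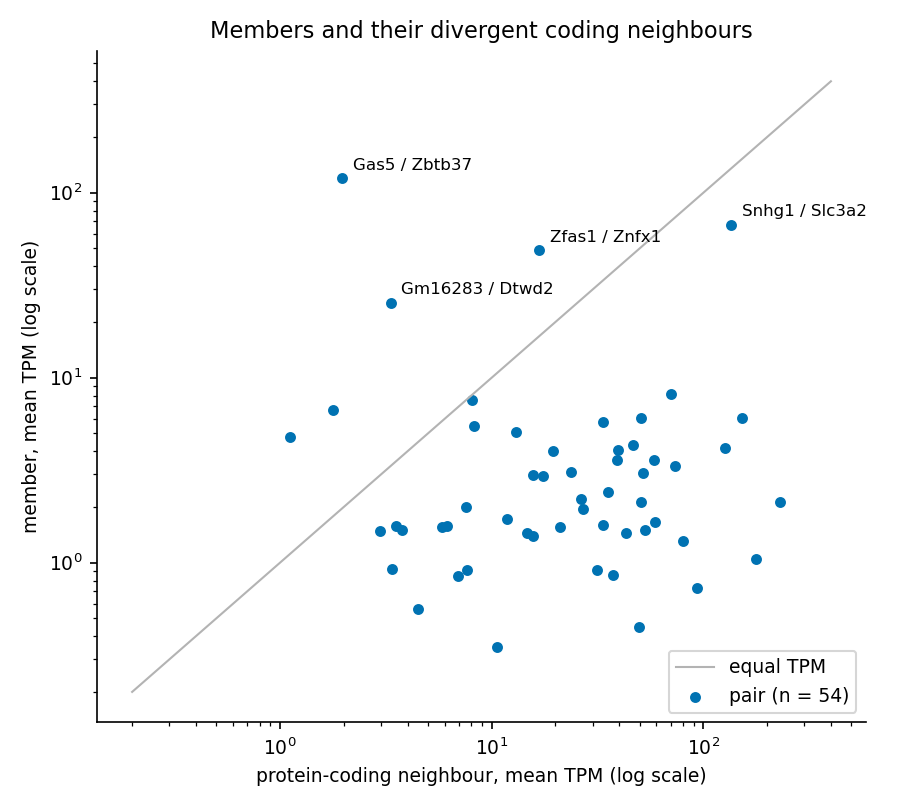
Mean TPM of 54 class members (y axis, log scale) against that of the coding gene starting on the opposite strand within 1000 bases (x axis, log scale); the line marks equal TPM. Of the 54 points 5 lie above the line, Gas5 furthest, and the median member is at 0.109 of its neighbour.

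The class name did not describe every member in other annotations. By Ensembl gene identifier, symbol or synonym, 107 of the 139 genes matched RefSeq. It typed 101 as long noncoding RNA, 5 as protein coding and 1, C4a, as a transcribed pseudogene. Ifi30, Trerf1 and Spata5l1 matched coding genes of the same symbol, while Gm12940 and Gm15832 matched Sfpq and Rnf149 through synonyms. GENCODE M21 typed 136 as processed transcripts, Mirt1 as lincRNA, AW011738 as protein coding and Gm12905 as antisense. Ifi30, Trerf1 and Spata5l1 together held 19.5% of the summed normalised CPM.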

How the data were processed

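RNA of 4 libraries of sorted splenic B cells was sequenced as single reads of 50 nt after poly(A) selection, with 20 M reads planned. The authors deposited whole-number counts per gene, 1 table per library. The tools named are STAR 2.5.2b, featureCounts 1.6.0 and FastQC, with the mm10 genome, per the submitters' processing notes; which gene annotation was counted, whether strand was used and how multiply matching reads were handled are not given in the sources used here. All 4 libraries were used.

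From the counts, CPM used library totals, and normalised CPM used TMM factors (0.945 to 1.03). The variation test was an intercept-only edgeR 4.0.16 quasi-likelihood fit across all genes passing filterByExpr, comparing each gene's quasi-dispersion with the trend (upper tail of F, Benjamini-Hochberg adjustment). limma 3.58.1, DESeq2 1.42.0 and other settings were alternatives. The script was tested on simulated data. Gene positions, exon sharing and nested RNAs came from GENCODE M21, which matched 37536 of 37646 identifiers and all 139 members; promoters and mature miRNAs came from RefSeq (GRCm38.p6).

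Members and gene lists were chosen with earlier results of these data known. Named genes were the 20 of highest mean CPM, the small RNA hosts, the 10 largest and 5 smallest ratios, 5 on each side of the limit, the 5 smallest p-values, and the highest and lowest gene of each list without members. Genes singled out by their coding neighbour, their shared exons or their RefSeq type were chosen after their values were seen.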

Additional observations from a re-analysis of the deposited data

Results flagged for a closer look

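The 4 normalised values of each of 47 named genes and of 3 sums were searched for a library far from the rest by Dixon's gap ratio, for which chance marks about 1 in 20 groups. Only A930005H10Rik was marked, with 8.72 normalised CPM in library 4 against 7.59 to 7.77 in the others. Its ratio of 1.15 is among the 5 smallest of the class.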

How the results depend on the processing

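The number of called members was 0 in the edgeR fit, and 0 with the robust option, RLE factors, totals only, a mean CPM filter, limma-voom and leaving out each library (0 to 0). It was 1, Gm43305, with no filter and 1 among DESeq2's dispersion outliers; the cause was not tested. The class held 139 genes, 84 at a limit of 2 CPM and 193 at 0.5 CPM, and 97 with at least 1 CPM in every library; leaving out a library gave 130 to 141. Its mean share of counts, 0.193%, became 0.243% without mitochondrial genes in the total, 0.163% without Ifi30 and 0.0534% over the 52 members sharing no exon base; leaving out a library gave 0.185% to 0.200%. The snoRNA host share, 0.0728%, became 0.0914% without mitochondrial genes and 0.0530% without Gas5, and ran from 0.0686% to 0.0775% when a library was left out. Ratios of the 47 named genes moved by at most 8.73% with RLE factors or totals. Taking the longest transcript as length, chosen after seeing the data, raised Gas5 from 119 to 176 TPM and Snhg17 from 15.9 to 28.7. Without library 3, the only one with male RNA, the ratio of Gm43305 fell from 3.77 to 2.36 and the order of the snoRNA hosts held in 8 of 9 as before. No paired analysis was possible because there is 1 group. Depth limits the members below 2 CPM, 55 of 139.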
